A study of Mus musculus with 6 samples.

Results

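The genes of fatty acid and sterol synthesis were described in mouse hearts. Membership was set by a written list of 29 genes, 13 for fatty acid synthesis and 16 for sterol synthesis, out of 36564 genes that had a value. Of the 29 genes, 27 had a value and 21 reached the mean level required for testing, all 13 fatty acid genes and 8 of the 16 sterol genes. The expression of Hmgcs1 and Mvd, which encode early enzymes of the sterol pathway, was not analysed here. The hearts came from mice aged 32 weeks. The 3 control libraries (1, 2 and 3) were from ApoE-/- littermates and the 3 double mutant libraries (4, 5 and 6) from ApoE-/- Timp3-/- mice, so both groups lacked apolipoprotein E, a ligand for the uptake of lipoproteins. Timp3 encodes a secreted inhibitor of metalloproteinases. The unit is FPKM, fragments per kilobase of transcript scaled to the mapped fragments of that library, summed over the transcripts of a gene.

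Fatty acid synthesis turns citrate into acetyl-CoA and malonyl-CoA, builds palmitate on fatty acid synthase, and then elongates and desaturates the chain. Sterol synthesis turns acetyl-CoA into mevalonate, isoprenoids, squalene and lanosterol, and finally cholesterol. Both pathways are controlled by the SREBP transcription factors, which are held in the endoplasmic reticulum by the INSIG proteins when sterols are plentiful. Heart muscle burns fatty acids far more than it makes them, whereas fat cells are a main site of fatty acid synthesis.

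Timp3 stood at 52.1, 38.0 and 36.3 FPKM in control libraries 1, 2 and 3 and at 20.2, 28.0 and 29.6 in double mutant libraries 4, 5 and 6. It was lower in all 3 double mutants but not absent, its log2 difference of -0.61 had an adjusted p of 0.29 (limma), and the sources used here do not say which bases the Timp3-/- allele lacks. The 8 adipocyte markers summed to 293 FPKM in control library 1 and to 53.9 in double mutant library 5, against 2.21 to 7.12 in the other 4 libraries. Among them Adipoq, the fat cell hormone adiponectin, stood at 23.3 and 5.72 FPKM in libraries 1 and 5 and at 0.472 or less in the others. Ucp1, the uncoupling protein of brown fat, stood at 31.6 FPKM in library 1 and at 0.0398 or less in each of the others. Among the other brown fat markers, Cidea, Otop1, Elovl3, Dio2 and Zic1 were also highest in library 1, at 25.4, 1.98, 1.14, 0.554 and 0.0916 FPKM. All 7 brown fat markers summed to 282 in library 1 and to 244 to 469 in the others. Most of that sum was Cox8b, which was lowest in library 1 at 221 FPKM and ran from 238 to 460 in the others. Myh6, the main myosin heavy chain of mouse heart muscle, stood between 634 and 991 FPKM in every library. The list medians and the main log2 differences printed for listed genes are therefore given with and without library 1. Counts at an unadjusted p, counts without overlap and the Timp3 difference are given for all 6 libraries. In a bulk sample, fewer cells of a type and less RNA per cell cannot be told apart.

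The stretches before the gene starts are shown for 6 members because they carry the one sequence feature that most sterol genes here shared, the CCAAT box bound by the factor NF-Y. They come from the RefSeq promoter table of build GRCm38.p6, which held 22 of the 29 members, and are read 5′ to 3′ on the strand of the gene. The stretches are chr11:120824582-120824657 for Fasn (minus strand), chr9:77917184-77917364 for Elovl5 (plus strand), chr15:82147114-82147158 for Srebf2 (plus strand), chr5:4104702-4104746 for Cyp51 (minus strand), chr5:114444076-114444268 for Mvk (plus strand) and chr13:119690101-119690330 for Hmgcs1 (plus strand). Capitals mark CCAAT, which reads ATTGG on the opposite strand, and also CACGTG in Elovl5 and the sterol element TCACNCCAC in Hmgcs1. In Fasn, 2 of the marked CCAAT boxes overlap.
Fasn: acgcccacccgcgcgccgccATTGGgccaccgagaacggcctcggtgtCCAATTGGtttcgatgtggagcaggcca
Elovl5: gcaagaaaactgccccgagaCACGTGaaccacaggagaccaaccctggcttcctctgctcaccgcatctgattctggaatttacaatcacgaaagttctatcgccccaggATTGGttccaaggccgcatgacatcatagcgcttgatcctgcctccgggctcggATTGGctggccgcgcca
Srebf2: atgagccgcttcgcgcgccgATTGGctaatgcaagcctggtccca
Cyp51: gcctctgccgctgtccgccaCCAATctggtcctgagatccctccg
Mvk: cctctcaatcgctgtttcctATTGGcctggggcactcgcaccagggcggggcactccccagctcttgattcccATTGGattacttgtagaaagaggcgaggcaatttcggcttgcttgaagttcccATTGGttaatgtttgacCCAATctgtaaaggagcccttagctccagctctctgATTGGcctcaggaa
Hmgcs1: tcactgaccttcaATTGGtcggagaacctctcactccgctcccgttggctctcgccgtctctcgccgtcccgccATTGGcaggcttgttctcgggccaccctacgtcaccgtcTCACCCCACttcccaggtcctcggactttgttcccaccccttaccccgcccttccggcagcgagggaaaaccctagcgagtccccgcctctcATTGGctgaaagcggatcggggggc

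Each window of 250 bases before a gene start was searched on both strands. CCAAT was in 12 of 14 windows of sterol members (85.7%), and each of the 12 sterol members in the table had at least 1 window with it. It was in 6 of 13 windows of fatty acid members (46.2%) and in 33.8% of all 32851 windows. Mvk, the mevalonate kinase, held 5 CCAAT boxes. CACGTG was in 1 fatty acid window, 3 sterol windows (21.4%) and 6.02% of all windows. TCACNCCAC was in no fatty acid window, in 1 sterol window, that of Hmgcs1, and in 1.05% of all windows. Sterol elements that differ from this exact pattern were not searched. These matches describe letters and were not tested as binding sites.

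Library 1, with the most adipocyte marker RNA, gave the highest value of most fatty acid genes. It also had the highest sums of the macrophage markers (25.5 FPKM, against 8.14 to 14.1 in the others), the fibroblast markers (308, against 165 to 215) and the atrial markers (1699, against 113 to 1423). Atrial RNA was not particular to library 1. Myl7, an atrial marker, stood at 409, 173 and 229 FPKM in libraries 1, 5 and 6, against 13.4 or less in libraries 2, 3 and 4. Myl4 and Sln divided the libraries in the same way, and Nppa, at 802 FPKM in library 2, did not. Values without library 1 thus set controls low in Myl7 against double mutants of which libraries 5 and 6 were high. The part of all these cells in the values was not tested. After scaling, library 1 was the highest of the 6 libraries in 12 of 13 fatty acid members, against 17.9% of all 11438 tested genes and 3 of 8 sterol members. Library 1 was at least 2 times the median of libraries 2, 3, 4 and 6 in 6 of 13 fatty acid members, against 2.9% of all tested genes, and library 5 in 4 of 13, against 1.71%. In 4 fatty acid members, Fasn, Acaca, Scd1 and Elovl6, both libraries passed that mark, which held for 0.944% of all tested genes and for no tested sterol member. Acaca and Elovl6, and Nsdhl among the sterol members, reached the level required for testing only through library 1. The filter thus favoured all of these counts. Sqle, a sterol member at 8.24 times that median in library 1, did not reach the test and is not in them. The 13 fatty acid members summed to 378 FPKM in library 1 and 144 in library 5, against 64.5 to 83.2 in the other 4. Of these sums, Scd1 alone gave 197 FPKM in library 1 and 64.4 in library 5, and Fasn gave 65.3 and 14.0. The 8 tested sterol members summed to 28.2 FPKM in library 1, 15.5 in library 5 and 18.3 to 20.4 in the others.

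**Figure D1:**
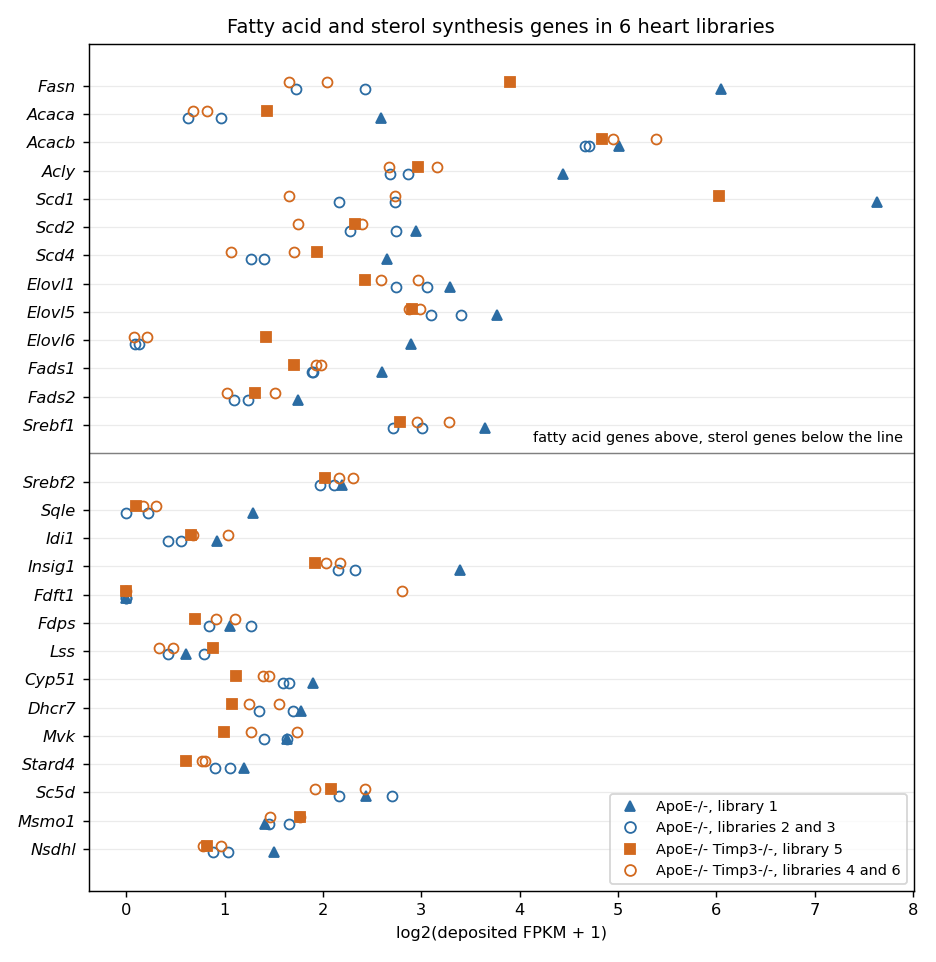
Level of the 27 members with a value in each library, as log2(deposited FPKM + 1) on the horizontal axis, with ApoE-/- in blue and ApoE-/- Timp3-/- in orange and libraries 1 and 5 as filled symbols. Scd1, Fasn and Elovl6 are far to the right in libraries 1 and 5. Most sterol genes lie close together in all 6 libraries on this scale, which understates the change of low genes.

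Citrate lyase and the carboxylases supply the building blocks. Acly, which splits citrate into acetyl-CoA, stood at 20.7, 6.30 and 5.43 FPKM in controls 1 to 3 and at 7.94, 6.82 and 5.38 in double mutants 4 to 6. Library 1 was high and the other 5 overlapped. Acaca, the cytosolic acetyl-CoA carboxylase, stood at 5.04, 0.950 and 0.545 FPKM in the controls, against 0.607, 1.70 and 0.764 in the double mutants. Its mean fell below the required 1 FPKM when library 1 was left out (0.913). Acacb, the carboxylase tied to mitochondria that is known for restraining fatty acid oxidation in muscle, was the member with the highest level outside fat-rich libraries, at 31.3, 25.1 and 24.3 FPKM in the controls, against 40.9, 27.7 and 29.8 in the double mutants. Deposited values overlapped between the groups, and scaled values did not, at 26.1 ± 0.972 in controls and 33.5 ± 5.72 in double mutants (SD, n = 3). The log2 difference of 0.34 did not pass (adjusted p = 0.41, limma), and it was 0.35 without library 1 and 0.41 without libraries 1 and 5.

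Fatty acid synthase and the stearoyl-CoA desaturases build and desaturate the chain. Fasn, which builds palmitate, stood at 65.3, 4.37 and 2.30 FPKM in controls 1 to 3 and at 2.15, 14.0 and 3.10 in double mutants 4 to 6. Libraries 1 and 5 stood apart, and the other 4 overlapped. The log2 difference was -0.78, with a 95% interval from -3.36 to 1.79, and it turned to 0.46 without library 1 and to -0.28 without libraries 1 and 5.

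Scd1 places the first double bond in saturated chains. It stood at 197, 5.64 and 3.49 FPKM in the controls, against 2.16, 64.4 and 5.64 in the double mutants. The confidence bounds that the authors deposited for it, 193 to 201 in library 1 and 62.5 to 66.2 in library 5, lay far above those of the other libraries, the highest of which was 6.25. Its log2 difference of -0.62 was 1.02 without library 1, -0.31 without libraries 1 and 5 and 0.32 without library 4, so its sign depended on the libraries kept. Scd4, a heart-enriched desaturase, stood at 5.27, 1.42 and 1.64 FPKM in the controls, against 1.10, 2.83 and 2.27 in the double mutants. Scd2 stood at 6.69, 5.70 and 3.85 FPKM in the controls, against 2.37, 4.01 and 4.27 in the double mutants. Its log2 difference was -0.43 (adjusted p = 0.50, limma), and -0.37 without library 1. Scd1, Scd2 and Scd4 are related genes that lie close together (NCBIM37 chr19:44468941-44482199, chr19:44368166-44381354 and chr19:44407582-44421233), and how reads that match more than 1 of them were split was not tested. With reference transcripts only, Scd2 gave 6.69, 4.81 and 3.85 against 2.37, 1.62 and 3.38 FPKM, without overlap, and a log2 difference of -0.79 (adjusted p = 0.37, range 0.25 to 0.77 over the alternatives, limma).

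**Figure D2:**
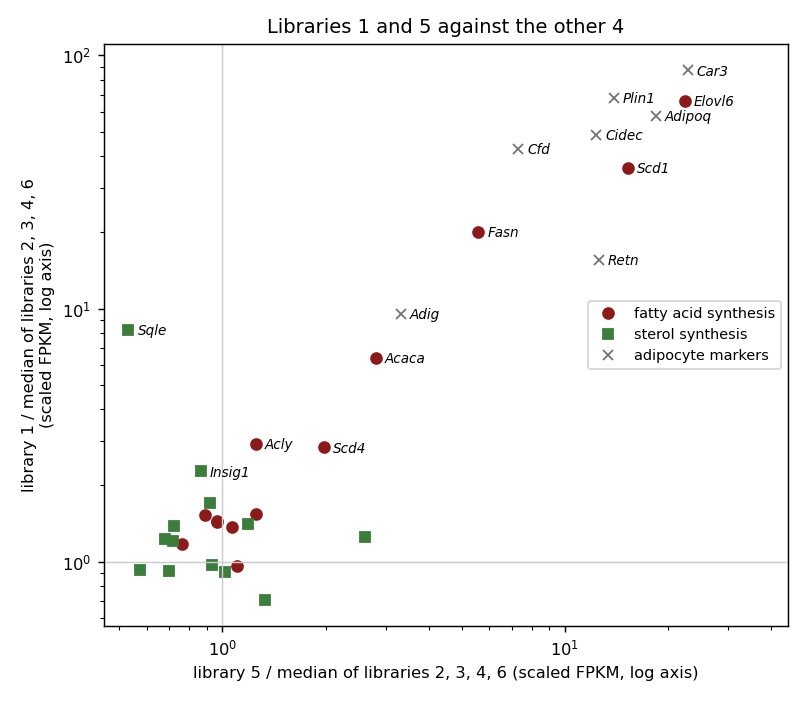
Ratio of library 1 (vertical axis) and of library 5 (horizontal axis) to the median of libraries 2, 3, 4 and 6, from scaled FPKM on log axes, for members and for 7 adipocyte markers. Fasn, Scd1 and Elovl6 lie among the markers and Acaca just below them. The tested sterol genes run from 0.572 (Mvk) to 1.335 (Msmo1) in library 5.

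After scaling, library 1 was at 66.1 times the median of libraries 2, 3, 4 and 6 for Elovl6, 36.0 times for Scd1, 20.1 times for Fasn and 6.41 times for Acaca. Library 5 was at 22.4, 15.3, 5.59 and 2.81 times it in the same order. The amount above that median was 3.04 times as large in library 1 as in library 5 for Elovl6, 2.45 times for Scd1, 4.16 times for Fasn and 2.99 times for Acaca. For the adipocyte markers this ratio ran from 1.26 for Retn to 6.63 for Cfd, with 3.25 for Adipoq. The ratio was taken only for genes at least 2 times that median in both libraries, so these 4 were chosen for being high there. Acaca and Elovl6 also reached the test only through library 1. The 4 genes fell within the range of the fat markers, which was wide. The part of fat tissue in the genotype differences was not tested.

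Elongases and desaturases of longer chains came next. Elovl6, which extends palmitate, stood at 6.44, 0.0949 and 0.0670 FPKM in the controls, against 0.0569, 1.68 and 0.154 in the double mutants. It was near 0 in every library but 1 and 5, and it entered the test only through library 1, with a mean of 0.410 FPKM without it. Elovl1 makes very long saturated chains. It stood at 8.78, 7.30 and 5.72 FPKM in the controls, against 6.81, 4.39 and 5.01 in the double mutants, with overlap. Its log2 difference was -0.31 (adjusted p = 0.46, limma), and -0.26 without library 1. Elovl5 (NCBIM37 chr9:77765171-77832326), which elongates polyunsaturated chains, stood at 12.6, 9.59 and 7.56 FPKM in the controls, against 6.36, 6.50 and 6.94 in the double mutants. All 3 double mutants were below all 3 controls. Scaled FPKM averaged 9.51 ± 1.29 in controls and 6.78 ± 0.524 in double mutants (SD, n = 3), a log2 difference of -0.43 with a 95% interval from -0.74 to -0.12 (unadjusted p = 0.014, adjusted p = 0.29, limma). The difference was -0.34 without library 1 and -0.38 without libraries 1 and 5. With reference transcripts only, the groups overlapped, at 9.96, 8.46 and 4.76 against 6.36, 6.50 and 4.07 FPKM.

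Fads1 and Fads2, the delta-5 and delta-6 desaturases, were highest in library 1. Fads1 stood at 5.06 FPKM in library 1 and between 2.26 and 2.94 in the others. Fads2 stood at 2.36 FPKM in library 1 and between 1.03 and 1.85 in the others, and 88.8% of its FPKM came from assembled transcripts. Its reference transcript was listed at 0 in every library but 4, where it stood at 1.03 FPKM. Srebf1, which encodes the SREBP of the fatty acid pathway, stood at 11.6, 7.06 and 5.56 FPKM in the controls, against 8.73, 5.91 and 6.77 in the double mutants. Its log2 difference was -0.05 and turned to 0.13 without library 1.

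The 13 fatty acid members had a median log2 difference of -0.33 with 12 below 0 and 1 above, where all tested genes had a median of -0.006 and 51.1% below 0. Without library 1 the median was 0.14 with 9 above 0 and 4 below, and without libraries 1 and 5 it was 0.003 with 7 above and 6 below. The direction of the list thus rested on library 1. Acaca and Elovl6, both below 0 with all 6 libraries, also entered the test only through library 1. None of the 21 tested members passed an adjusted p of 0.05 in limma, as 0.035% of all tested genes did. At an unadjusted p of 0.05, 2 members passed, Elovl5 and Cyp51, both lower in the double mutants, against 12.2% of all tested genes and 5.25% that were lower. After scaling, fatty acid members did not overlap between the groups in 2 of 13 cases, Elovl5 lower and Acacb higher. Sterol members did not overlap after scaling in 3 of 8 cases, Insig1 and Cyp51 lower and Srebf2 higher, and in deposited FPKM Acacb, Insig1 and Srebf2 overlapped. Over all tested genes the share was 19.2%, with 9.23% lower and 9.99% higher.

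**Figure D3:**
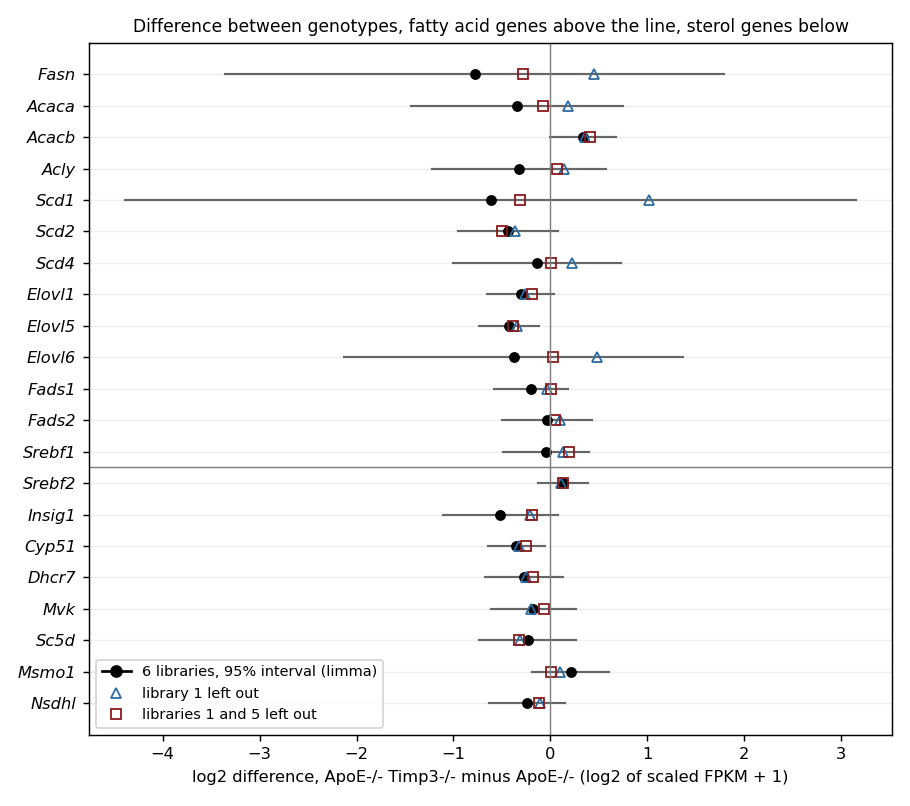
Log2 difference between genotypes (ApoE-/- Timp3-/- minus ApoE-/-, horizontal axis) of the 21 tested members, with the 95% interval from limma over 6 libraries, and the difference with library 1 or libraries 1 and 5 left out. Scd1, Fasn and Elovl6 have the widest intervals and cross 0 when library 1 is left out, and Elovl5 and Cyp51 stay below 0 in all 3.

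The sterol members were low in these hearts. Insig2, an INSIG gene outside the member list, stood between 33.8 and 37.7 FPKM, all of it from assembled transcripts. Srebf2 (NCBIM37 chr15:81977696-82035806), which encodes the SREBP of sterol synthesis, stood at 3.56, 3.32 and 2.91 FPKM in the controls, against 3.48, 3.05 and 3.94 in the double mutants. Deposited values overlapped and scaled values did not (3.17 ± 0.121 against 3.57 ± 0.290, SD, n = 3). The log2 difference of 0.13 did not pass (adjusted p = 0.69, limma), and it was 0.11 without library 1. Insig1, the sterol-sensing anchor that SREBP itself switches on, stood at 9.51, 4.01 and 3.45 FPKM in the controls, against 3.52, 2.79 and 3.10 in the double mutants. Library 1 was high, control 3 lay below double mutant 4 in deposited FPKM, and without library 1 the log2 difference shrank from -0.52 to -0.21 (adjusted p = 0.47 with all 6 libraries, limma).

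The value of Srebf2 depended on how assembled transcripts were given to genes. Short assembled transcripts at this gene met the overlap rule in controls 2 and 3 and missed it in all 3 double mutants. With exon overlap alone, Srebf2 stood at 3.56, 3.32 and 2.91 against 2.18, 1.98 and 2.16 FPKM, a log2 difference of -0.40 (adjusted p = 0.26, range 0.26 to 0.99 over the alternatives, limma). With a shared intron as a second criterion these transcripts were counted in both groups. With scaling to a fixed total, the difference was -0.02.

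**Figure D4:**
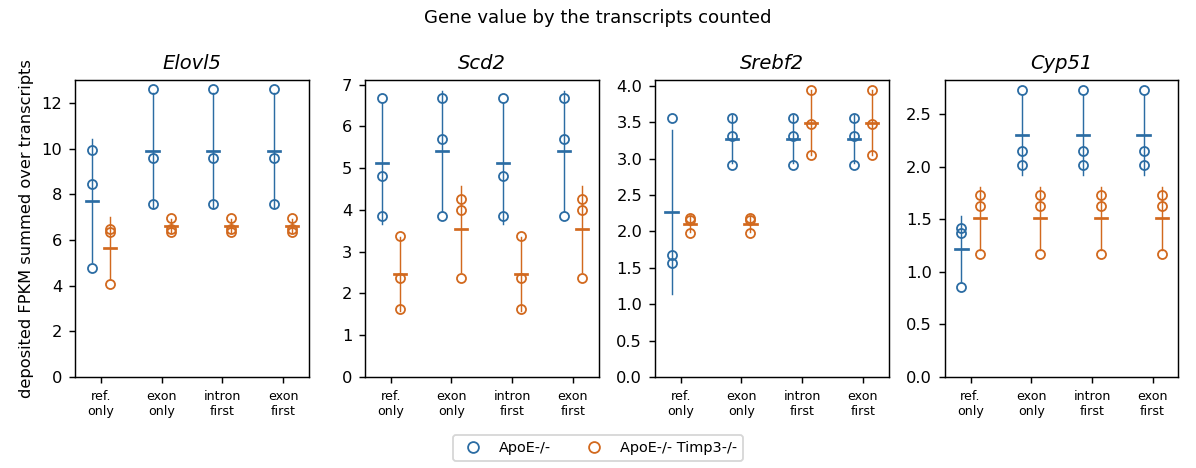
FPKM of 4 members in each library by the transcripts counted (reference only, assembled by exon overlap alone, by shared intron first, and by exon overlap first as used here), with bars for the mean and vertical lines for 1 SD over 3 libraries. Srebf2 separates the genotypes only with exon overlap alone, Cyp51 changes order with reference transcripts only, and Elovl5 overlaps there.

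Mevalonate and isoprenoid enzymes were near the limit of the test. Mvk stood at 2.10, 2.10 and 1.65 FPKM in the controls, against 2.34, 0.994 and 1.42 in the double mutants, with overlap. Idi1, which isomerises the isoprenoid unit, stood between 0.339 and 1.05 FPKM, and Fdps, which joins these units, between 0.630 and 1.41. Fdps, at a mean of 0.991, was just under the required 1 FPKM, and Nsdhl, at 1.03, was just above it and fell to 0.863 without library 1. Of the 21 tested members, 18 had a mean of at least 1 FPKM without library 1. Squalene synthase, Fdft1, had its reference transcript listed at 0 in all 6 libraries and assembled transcripts with a value in library 4 alone (5.97 FPKM), so its value was not used. Sqle, the squalene epoxidase, stood at 1.45 FPKM in library 1, was listed at 0 in library 2, and stood between 0.0719 and 0.230 in the others. Lss, which closes the sterol rings, stood between 0.264 and 0.846 FPKM.

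The members among the late enzymes, which turn lanosterol into cholesterol, all stood below 6 FPKM. Cyp51 (NCBIM37 chr5:4081145-4104746), the lanosterol demethylase, stood at 2.73, 2.15 and 2.02 FPKM in the controls, against 1.73, 1.17 and 1.63 in the double mutants. All 3 double mutants were below all 3 controls. Its log2 difference was -0.35 with a 95% interval from -0.65 to -0.05 (unadjusted p = 0.027, adjusted p = 0.35, limma), -0.32 without library 1 and -0.26 without libraries 1 and 5. With reference transcripts only, Cyp51 stood at 0.852, 1.42 and 1.37 against 1.73, 1.17 and 1.63 FPKM and the difference turned to 0.21, so its direction depended on assembled transcripts found in the controls. Msmo1, the sterol methyl oxidase, stood at 1.66, 2.16 and 1.74 FPKM in the controls, against 1.76, 2.41 and 2.41 in the double mutants. Apart from Srebf2 it was the one tested sterol member above 0, with a log2 difference of 0.21 (adjusted p = 0.67, limma). That difference was 0.10 without library 1.

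Nsdhl, which works beside Msmo1, stood at 1.83 FPKM in library 1 and between 0.715 and 1.05 in the others. Sc5d, the sterol desaturase, stood at 4.40, 3.48 and 5.52 FPKM in the controls, against 2.79, 3.24 and 4.37 in the double mutants, with overlap. Dhcr7, the last reductase, stood at 2.42, 1.56 and 2.25 FPKM in the controls, against 1.93, 1.10 and 1.38 in the double mutants, also with overlap. Stard4, a carrier of cholesterol inside the cell, stood at 1.30, 0.871 and 1.08 FPKM in the controls, against 0.711, 0.520 and 0.746 in the double mutants. No double mutant reached a control, but its mean of 0.871 FPKM kept it out of the test.

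The 8 tested sterol members had a median log2 difference of -0.24 with 2 above 0 and 6 below. The median was -0.21 without library 1 and -0.15 without libraries 1 and 5, with 2 above and 6 below in both. The 6 endothelial markers summed to 129 to 162 FPKM in controls and to 89.0 to 134 in double mutants, and their part in the sterol values was not tested.

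Other genes of the pathways gave no call. Of 27 other fatty acid genes, 19 were tested and 0 passed in limma, with a median log2 difference of -0.10, or -0.06 without library 1. The 4 with the smallest p were Cyb5r3, a reductase that supplies electrons to desaturases (-0.51, adjusted p = 0.35), Mecr of mitochondrial fatty acid synthesis (-0.40, adjusted p = 0.44), Thrsp, a lipogenic nuclear protein (-0.77, adjusted p = 0.49), and Mlxipl, the carbohydrate-responsive factor (-0.22, adjusted p = 0.67). Without library 1, the differences of these 4 were -0.54, -0.42, -0.38 and -0.06 in the same order. After scaling, 2 of the 19, Cyb5r3 and Mecr, both lower, did not overlap between the groups, against 19.2% of all tested genes. In deposited FPKM, Cyb5r3 overlapped. Library 1 was the highest after scaling in 6 of the 19, against 17.9% of all tested genes. In 2 of the 19, libraries 1 and 5 were both at least 2 times the median of libraries 2, 3, 4 and 6. This held for 0.944% of all tested genes. The 2 were Slc25a1, the citrate carrier, and Aacs, named after their values were seen. Aacs reached the level required for testing only through library 1 (mean of 0.664 FPKM without it), so the filter favoured both of these counts. Of 18 other sterol genes, 11 were tested and 0 passed, with a median of 0.001, or 0.09 without library 1. Among them Mbtps1, which cuts SREBP (-0.26, adjusted p = 0.60), Scap, its escort (0.12, adjusted p = 0.68), Lbr (0.11, adjusted p = 0.72) and Ebp (-0.18, adjusted p = 0.75) had the smallest p in limma. Without library 1, the differences of these 4 were -0.27, 0.12, 0.14 and 0.02 in the same order. Scap and Lbr, both higher, were the 2 of the 11 that did not overlap after scaling. Over all tested genes the share was 19.2%, with 9.99% higher. In deposited FPKM, both Scap and Lbr overlapped.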

How the data were processed

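Messenger RNA was sequenced in 6 mouse heart libraries, and each library has a deposited Cufflinks transcript table holding the authors' FPKM, coverage and confidence bounds. The submitters' processing notes name TopHat, Bowtie, Cufflinks and build NCBIM37; the sources used here give no versions, settings or use of strand. Reads per gene are unknown, so no count test or counting interval is given. Coverage came to 654 to 1339 aligned megabases per library.

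FPKM were summed by gene. Reference transcripts were given to genes by identifier, else by exon overlap of at least 50%. Assembled transcripts reaching 300 nt went to a gene by exon overlap, and 540 others by a shared intron. This rule was settled after member values were seen: exon overlap alone was used first, then a shared intron first, and both are kept as alternatives. Genes with a mean FPKM of at least 1 were scaled by the median of ratios, and limma 3.58.1 (R 4.3.3, mean-variance trend, two-sided) compared log2(scaled FPKM + 1), with p adjusted by Benjamini-Hochberg over 11438 genes. This scale understates the change of low genes. The fit was tested on simulated data. Single libraries are given in deposited FPKM, means ± SD after scaling. The labels give each library as a sample of its own and do not say whether each came from a separate animal, so a p-value reflects only how far these samples vary, which may be technical. With 3 against 3, an exact permutation test cannot go below 0.1.

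The members and lists were chosen with earlier results of these data known. All members were named, with the 4 tested genes of smallest p from each other list, Timp3, Ucp1, Adipoq and Myh6. A few other genes, mostly markers, were named beyond this rule. An FPKM listed at 0 can be a failed estimate. Marker sums of Schwann cells, skeletal muscle, fibroblasts, macrophages, red blood cells, hepatocytes, atrial and other heart muscle cells were computed. Red blood cell markers reached 3013 FPKM in library 4 and 306 or less in the others. Hepatocyte markers summed to 12.65 FPKM in library 6 and to 0.945 or less in the others, and their part in the member values was not tested.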

Additional observations from a re-analysis of the deposited data

How the results depend on the processing

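No paired analysis was possible because the labels number the libraries 1 to 6 and no number is shared between the genotypes. Over 443 combinations of a tested member and an alternative, no member passed the threshold and 38 changed direction, in 13 members. Directions of the other 8 members held in every alternative that tested them. The cause of each change was not tested, except where fewer libraries or transcripts were used. Alternatives with libraries 1 and 5 left out together, exon overlap alone and a shared intron first were chosen after seeing the data.

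Genes called numbered 4 over all tested genes, 0 with a pseudocount of 5 or with genes listed at 0 left out, 8 without a filter, 1 with a mean FPKM of at least 5, 7 with reference transcripts only, 106 with libraries weighted by their spread, and 1 to 11 with 1 library left out (1 without library 1, 11 without library 2, 9 without library 4). The fatty acid median was 0.075 with libraries weighted, 0.003 without libraries 1 and 5, and -0.522 to 0.141 with 1 library left out. The sterol median was -0.356 with scaling to a fixed total (which moved the median of all genes to -0.157), -0.348 and -0.097 with pseudocounts of 0.1 and 5, -0.111 with reference transcripts only, -0.06 with the strongest transcript, -0.323 with libraries weighted, -0.15 without libraries 1 and 5, and -0.318 to -0.19 with 1 library left out. No sterol member had a mean FPKM of at least 5.

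Log2 differences that changed direction were as follows. With libraries weighted: Fasn 0.41, Acaca 0.149, Scd1 1.115, Scd4 0.196, Elovl6 0.295, Fads2 0.075 and Srebf1 0.021. With 1 library left out, the ranges were -1.557 to 0.455 for Fasn, -0.683 to 0.188 for Acaca, -0.579 to 0.141 for Acly, -1.956 to 1.02 for Scd1, -0.367 to 0.227 for Scd4, -0.846 to 0.477 for Elovl6, -0.15 to 0.119 for Fads2 and -0.185 to 0.13 for Srebf1; each turned without library 1, Scd1, Scd4 (0.323 and 0.142) and Fads2 also without library 4, and Srebf1 also without library 5 (0.011) or 6 (0.002). Without libraries 1 and 5: Acly 0.074, Scd4 0.004, Elovl6 0.026, Fads1 0.003, Fads2 0.052 and Srebf1 0.191. With reference transcripts only and with the strongest transcript: Fads1 0.061 and 0.053, Srebf1 0.115 and 0.196, Cyp51 0.205 and 0.2, Sc5d 0.094 and 0.151; Msmo1 was -0.06 with the strongest transcript. Fads2 was 0.028 with quantile normalization. Srebf2 was -0.015 with scaling to a fixed total and -0.401 with exon overlap alone; Scd2 was -0.773 with a shared intron first, without a change of direction.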
